A study of Arabidopsis thaliana with 6 samples.

Results

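The 200 probe sets with the highest mean log2 signal over 6 Affymetrix ATH1 arrays of *Arabidopsis* inflorescences were taken as the most abundant inflorescence transcripts measured here. They were chosen among 13428 probe sets that are annotated with a single gene, of 22746 on the array that are not Affymetrix controls. A run of probe set numbers (82 probe sets, of which 65 are for genes of the plastid genome) and 3 further genes (*AT4G12960*, *AT4G12890* and *AT1G78370*) were left out, with no reason stated. The 13428 probe sets stand for 13265 genes and the 200 for 200 different ones, and the level of a gene over all 6 arrays is therefore what chose it and not a finding.

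The arrays compare *bp er fil-10* inflorescences (3 arrays) with those of the *bp er* parent line (3 arrays). Both genotypes carry mutations in *BREVIPEDICELLUS* (*BP*), a class I *KNOX* homeobox gene that promotes growth of stems and pedicels, and in *ERECTA* (*ER*), which encodes a receptor kinase. They differ in *fil-10*, a recessive allele of the *YABBY* gene *FILAMENTOUS FLOWER* that came out of an EMS screen for suppressors of *bp er* and was backcrossed repeatedly to *bp er*. The allele is represented by 1 suppressor line, and no array of wild-type plants or of *fil-10* alone was analysed here, so that other mutations linked to *fil-10* and *fil-10* itself cannot be told apart. Floral stages 1 to 13 were included. Neither *FIL* nor *BP* has a named probe set, and the genotypes were therefore not checked on the arrays. The replicates are labelled as biological, and nothing more is said of their source.

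Transcripts that are abundant in a young inflorescence are mostly products of genes that every growing cell needs, for translation, primary metabolism and the cytoskeleton. Green buds, pedicels and stems add the nuclear transcripts of the photosynthetic apparatus, whose proteins are imported into chloroplasts. Flowers add secreted proteins of epidermis, anther and carpel, among them small cysteine-rich peptides such as thionins and defensin-like proteins.

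The deposited values are MAS signals, which express on a linear scale how strongly each probe set hybridized, with 1 scaling factor per array that sets a common target of 500. Signals of different probe sets depend on their oligonucleotides as well as on the amount of RNA, so the rank describes brightness and gives no order of transcript numbers. Single signals of the 200 genes lay between 1155.3 and 34153.6. The median over the 200 was 6481.5, 6117.95 and 6814.15 for *bp er fil-10* (replicates 1, 2 and 3) and 7493.35, 6950.25 and 7298.5 for *bp er*, so that each *bp er fil-10* array lay below each *bp er* array. The 200 took 9.67, 9.42 and 9.76% of the summed signal in *bp er fil-10* and 10.7, 10.3 and 10.6% in *bp er*. Over all probe sets that are not controls the median signal was 203, 215 and 213 in *bp er fil-10* and 202, 211 and 193 in *bp er*, which overlap.

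At the top of the rank stood *AT1G66850*, with a mean log2 signal of 14.72. The limit of the list fell between *AT3G54210*, the last inside with a mean of 12.06, and *scpl48* and *MPPBETA*, the first outside, each with 12.05. The list depended little on how the signals were averaged. Of the 200 genes, 199 stayed among the 200 brightest by mean linear signal and 199 after quantile normalization, which gives all arrays the same distribution of signals. By the arrays of 1 genotype alone, 182 stayed for *bp er fil-10* and 189 for *bp er*.

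Of the 200 genes, 198 are nuclear and 2 (*psbK* and *matK*) are encoded in the plastid, a split that follows from the probe sets left out. Chromosomes 1 to 5 hold 48, 33, 48, 28 and 41 of them. The nuclear genes of the list were short, with a median length of 1669.5 bp from start to end (interquartile range 1303 to 2199 bp, n = 198), against 2389 bp (1752 to 3283 bp) for 7486 other annotated genes whose signal reached 100 on at least 3 arrays. All 200 probe sets carry the plain suffix that Affymetrix gave to probe sets designed for a single transcript. The annotation gives a name or description for 47 of the genes and only a locus number for the other 153, which are given here by that number with no role.

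The first question was whether the abundant transcripts differed between *bp er fil-10* and *bp er*. The difference is the mean log2 signal of *bp er fil-10* less the mean for *bp er*. It was tested 2-sided in limma, and p-values were adjusted by Benjamini-Hochberg over the 14456 probe sets that reached a signal of 100 on 3 or more arrays, as all 200 did. Of the 200 genes 0 passed at an adjusted p under 0.05 (0 higher and 0 lower in *bp er fil-10*), where 0.00692% of all probe sets tested were lower (1 of 14456) and 0.0% higher. At an unadjusted p under 0.05, 5 of the 200 were higher in *bp er fil-10* and 49 lower, that is 2.5% and 24.5%, against 9.78% and 7.06% of all probe sets tested. In 4 genes without overlap between genotypes the *bp er fil-10* arrays were all the higher ones (2%, against 14.2% of all probe sets tested), and in 61 others they were all the lower ones (30.5%, against 9.13%).

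The differences leaned to one side. The log2 difference was below 0 for 153 of the 200 genes (76.5%, against 43.6% of all probe sets tested), with a median of −0.17 (quartiles −0.35 and −0.015), while the median over all probe sets tested was 0.057. This lean depended on the scaling. Quantile normalization gives all arrays the same distribution of signals, so the median of a set chosen as the brightest must come out near 0 after it. The values after this step are therefore no check of the lean, and show only how a gene stood relative to genes of like brightness. After quantile normalization the median of the 200 was 0.022, against 0.021 over all probe sets, and 94 of the 200 (47%, against 47.5%) were below 0. At an unadjusted p under 0.05, 19 were then higher in *bp er fil-10* and 15 lower (9.5% and 7.5%, against 7.98% and 7.37%). Genes without overlap numbered 31 higher in *bp er fil-10* (15.5%, against 11.9%) and 22 lower (11%, against 10%). A general shift of the brightest probe sets on 3 arrays against the other 3 and a lower abundance of these transcripts cannot be told apart with these arrays, and fewer cells of a type cannot be told apart from less RNA per cell.

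**Figure D1:**
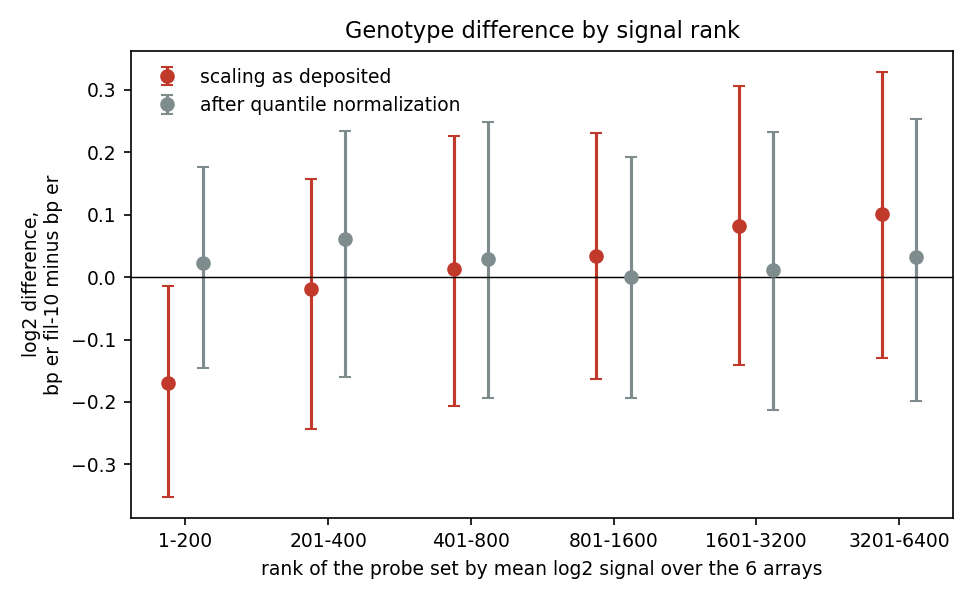
Log2 difference between *bp er fil-10* and *bp er* (y axis) in bins of probe sets ranked by mean log2 signal over the 6 arrays (x axis), as points for the median and bars for the quartiles, with the scaling as deposited (red) and after quantile normalization (grey). With the scaling as deposited the median was −0.17 for ranks 1 to 200, −0.018 for ranks 201 to 400 and 0.10 for ranks 3201 to 6400. After quantile normalization, which brings the bins near 0 by its construction, it lay between −0.00047 and 0.061 in all 6 bins.

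With the scaling as deposited the lean was strongest in the brightest bin. Median log2 differences were −0.17 for ranks 1 to 200, −0.018 for ranks 201 to 400, 0.013 for ranks 401 to 800, 0.033 for ranks 801 to 1600, 0.082 for ranks 1601 to 3200 and 0.10 for ranks 3201 to 6400. Among the 20 brightest genes 17 were below 0, with values from −0.52 to 0.074, and in 13 of the 20 (65%, against 9.13% of all probe sets tested) all *bp er fil-10* arrays lay below those of *bp er*. After quantile normalization 12 of the 20 were below 0, and 2 were lower and 2 higher without overlap, where 10% and 11.9% of all probe sets tested were. *AT1G66850* gave signals of 23062.4, 24742.1 and 22366.5 in *bp er fil-10*, against 29505.9, 30367.3 and 34153.6 in *bp er*. The arrays did not overlap, and the log2 difference was −0.42 (SE 0.11; limma adjusted p = 0.152), or −0.074 after quantile normalization.

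Most differences were small. For 173 of the 200 genes (86.5%) the log2 difference was under 0.5 in size. The spread between arrays of a genotype was a median SD of 0.184 on the log2 scale for the 200 genes, against 0.257 for all probe sets tested, and the median standard error of the difference was 0.15 against 0.21. The 95% interval of the difference reached 0.35 to either side for the median gene, and for 177 of the 200 it lay wholly between −1 and 1. A change of more than 1 on the log2 scale therefore lay outside the interval of these 177 genes. Past 1.9-fold, with no test, lay 3 genes that were lower in *bp er fil-10* and 0 that were higher (1.5% and 0.0%, against 1.93% and 2.47% of all probe sets tested).

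In another fit the replicate number was entered as a block, because arrays with the same number deviated together, if weakly, in both genotypes. With the block, 20 of the 200 genes passed at an adjusted p under 0.05 (10%, against 3.74% of all probe sets tested), of which 2 were higher in *bp er fil-10* (1%, against 1.6%) and 18 lower (9%, against 2.13%). After quantile normalization with the block 13 passed (6.5%, against 3.68%), 6 higher (3%, against 1.46%) and 7 lower (3.5%, against 2.22%), and 9 of these were among the 20. All 20 kept their sign after quantile normalization. Same-numbered arrays correlated most for replicate 3, and the basis for the block was otherwise narrow. The number that passed was 2 without the arrays of replicate 1, 9 without those of replicate 2 and 40 without those of replicate 3. The 40 include all 20, but that fit reuses arrays that gave the 20 and is no separate check. Shares over all probe sets were not counted for these fits.

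The genes and probe sets left out at the start bear on these counts. Of the 82 probe sets 24, all plastid-encoded, would have ranked among the 200 brightest. Their log2 differences between genotypes were −0.51 to 0.26 (median −0.29, or −0.015 after quantile normalization). With the block 2 of the 24 passed, where 3.74% of all probe sets tested did. Of the 3 genes 2 would have ranked there too. *AT4G12960* (*GILT*) gave 5246.4, 7374.9 and 4571.5 in *bp er fil-10*, against 18410.9, 16762.0 and 15593.5 in *bp er* (log2 difference −1.59, SE 0.18; limma adjusted p = 0.0526, and 0.00411 with the block). *AT1G78370* (*GSTU20*) gave 5152.1, 3024.9 and 4385.0 in *bp er fil-10*, against 7312.7, 7241.9 and 8169.5 in *bp er* (−0.89, SE 0.20; 0.124, and 0.0226 with the block). Both were lower in *bp er fil-10* without overlap, and the counts of differing genes given for the 200 do not include them.

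**Figure D2:**
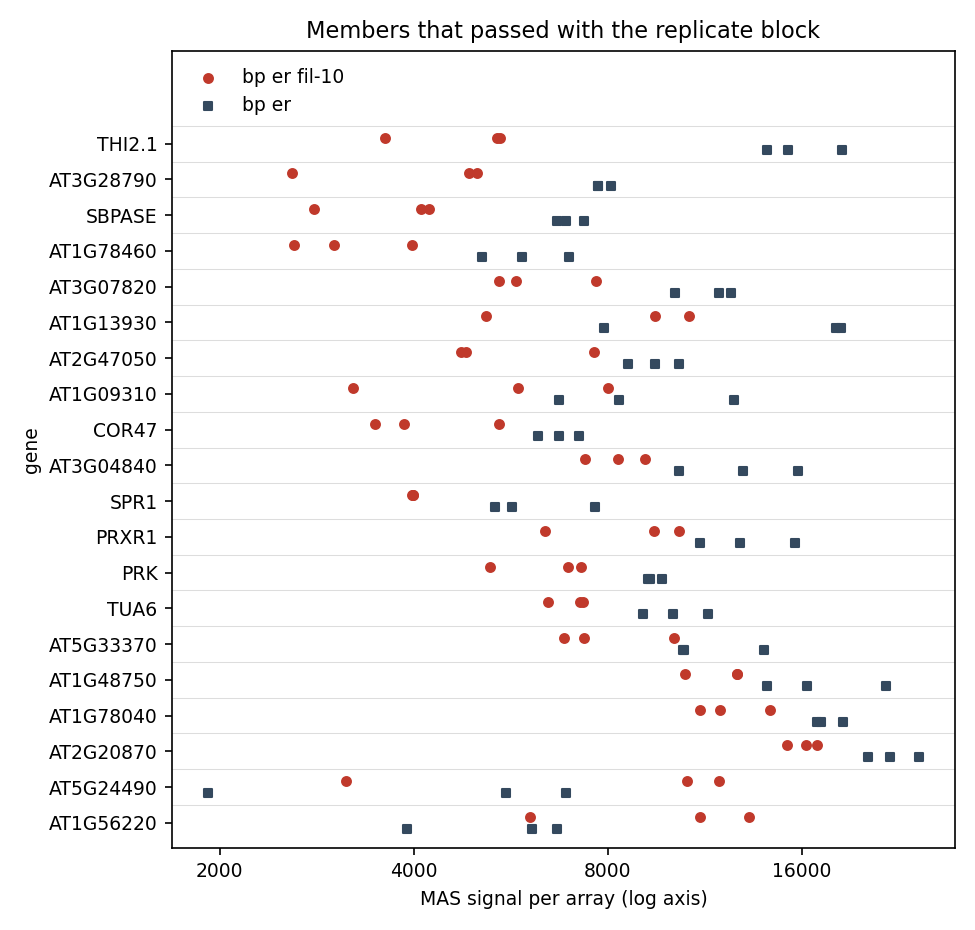
MAS signal of each array (x axis, log scale) for the 20 genes that passed with the replicate block, sorted by log2 difference, with *bp er fil-10* as circles above and *bp er* as squares below in each row. *THI2.1* shows the widest gap, with *bp er fil-10* arrays at 3611.5 to 5440.5 and *bp er* arrays at 14136.8 to 18439.2, and in 16 of the 18 genes that were lower the genotypes do not overlap.

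The largest difference in the list belonged to a defence peptide. *THI2.1* (AT1G72260) encodes a thionin, a small secreted antimicrobial peptide that is induced by jasmonate. It gave signals of 3611.5, 5440.5 and 5376.6 in *bp er fil-10*, against 18439.2, 15207.7 and 14136.8 in *bp er*. All 3 *bp er fil-10* arrays lay far below the *bp er* arrays, whose mean was 3.31 times as high. The log2 difference was −1.74 (SE 0.19, n = 3 per genotype), with a limma adjusted p of 0.0526 without the block and 0.00561 with it, and −1.52 after quantile normalization. The adjusted p without the block ranged from 0.0416 to 0.364 when each array was left out in turn, and it was under 0.05 without *bp er fil-10* replicate 3 (0.0443) and without *bp er* replicate 3 (0.0416). *THI2.1* was also the only one of the 200 genes past 2.5-fold in either direction, where 0.699% of all probe sets tested were lower and 0.837% higher.

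The other small secreted peptides among the named genes lay nearer to 0. *LCR69* and *LCR68*, which encode defensin-like proteins and lie on chromosome 2 with 2 genes between them, had overlapping genotypes. *LCR69* gave 16860.1, 16384.0 and 12076.3 in *bp er fil-10* and 15649.9, 14550.1 and 12552.5 in *bp er*, with a log2 difference of 0.074 (95% interval −0.29 to 0.44). *LCR68* gave 5256.0, 4609.2 and 5213.0 in *bp er fil-10* and 5108.9, 4626.4 and 4130.5 in *bp er*, with a log2 difference of 0.12 (−0.19 to 0.44). *RALFL34*, a member of the family of RALF signalling peptides, lay at 3750.6, 3694.9 and 4854.6 in *bp er fil-10*, below its *bp er* signals of 4966.9, 4857.1 and 5883.9, and did not pass with or without the block (adjusted p = 0.131 and 0.295).

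Of the 47 genes with a name or description, 14 serve photosynthesis, counting light reactions, chlorophyll synthesis and the Calvin cycle. Genes known by locus number only were not sorted by role, so that further photosynthesis genes may stand among them. The same holds for genes of the ribosome and of other roles, so the named genes do not show which role is most common in the list. The 14 were grouped after their values had been seen, and their median log2 difference of −0.34 is set against −0.17 for all 200. Of the 14, 12 were below 0 and 8 had no overlap between genotypes, all with the lower signals in *bp er fil-10* (57.1%, against 30.5% of the 200 and 9.13% of all probe sets tested), but 0 passed without the block. With it 2 passed, both lower (14.3%, against 9% of the 200 and 2.13% of all). After quantile normalization the median was −0.14 and 11 were below 0.

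The 3 named Calvin cycle genes had a median log2 difference of −0.55 (−0.35 after quantile normalization). All 3 were lower in *bp er fil-10* without overlap, as were 30.5% of all listed genes and 9.13% of all probe sets tested. They were grouped after their values had been seen, so that this count is not a result about the Calvin cycle. *SBPASE* encodes sedoheptulose-1,7-bisphosphatase, which regenerates the CO2 acceptor of the cycle. It gave 4098.6, 2800.9 and 4215.5 in *bp er fil-10*, against 6889.1, 6669.9 and 7357.7 in *bp er*. The highest *bp er fil-10* array lay well below the lowest *bp er* array, and the log2 difference was −0.93 (SE 0.18; limma adjusted p = 0.121, and 0.0147 with the block). *PRK*, phosphoribulokinase of the same part of the cycle, gave 6944.3, 5247.5 and 7275.7 in *bp er fil-10* and 9296.4, 9224.9 and 9705.6 in *bp er*. These did not overlap either, and the log2 difference was −0.55 (SE 0.15; adjusted p = 0.162, and 0.0499 with the block).

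*RCA*, the rubisco activase that keeps the carboxylating enzyme active, gave 14764.7, 11323.5 and 15987.9 in *bp er fil-10* and 16242.5, 17558.7 and 21494.6 in *bp er*. The genotypes were close but did not overlap, and the log2 difference of −0.40 (SE 0.17) did not pass with or without the block (adjusted p = 0.0999 and 0.278). After quantile normalization the differences were −0.80 for *SBPASE*, −0.35 for *PRK* and −0.067 for *RCA*. With the block, *SBPASE* still passed after this step (adjusted p = 0.0196), and *PRK* did not (0.156).

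**Figure D3:**
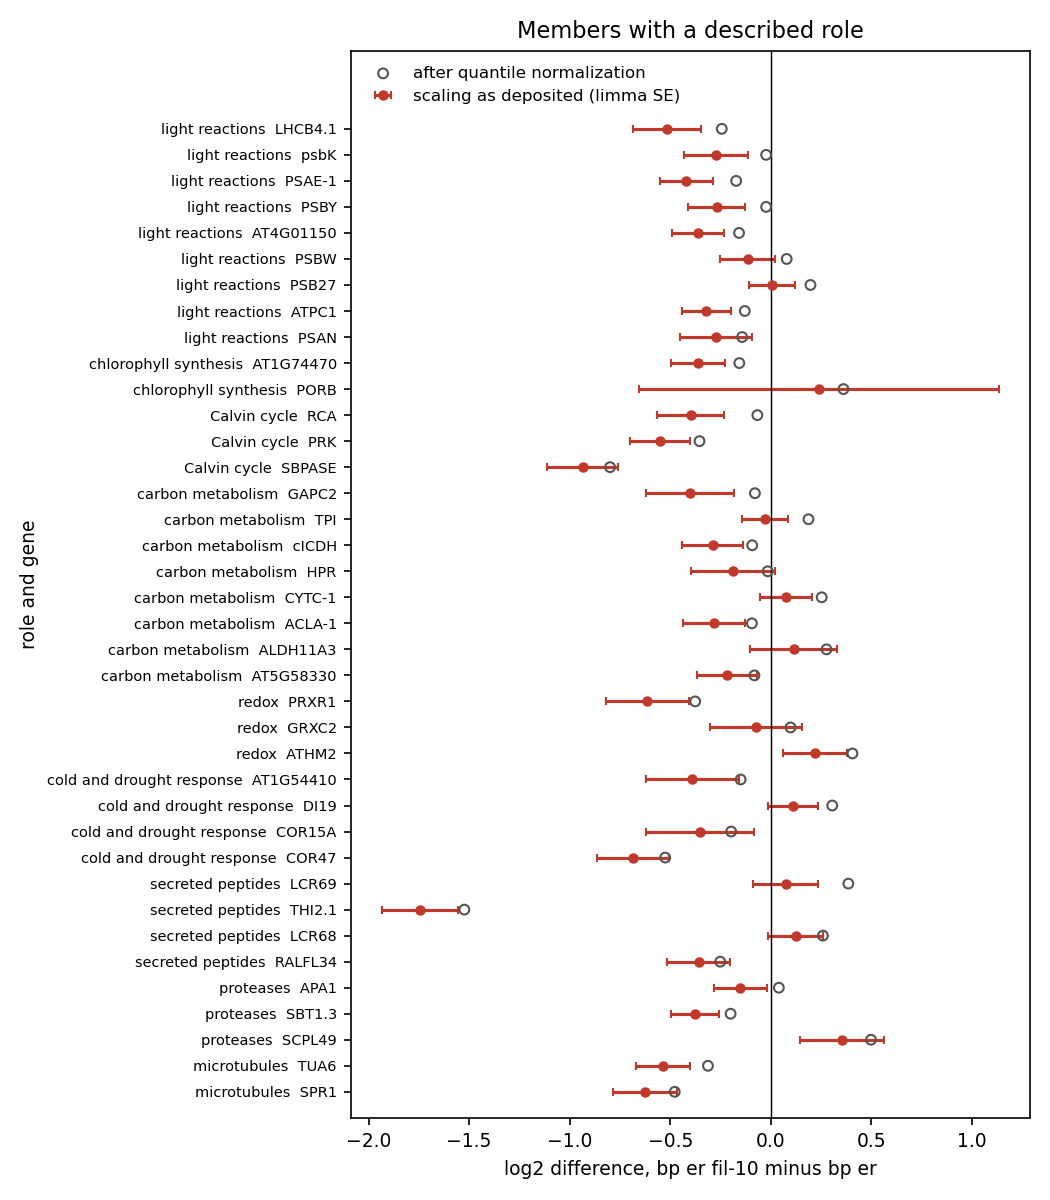
Log2 difference between *bp er fil-10* and *bp er* (x axis) for the 38 genes of the list with a described role (y axis, grouped by role), as filled points with limma's standard error for the scaling as deposited and as open circles after quantile normalization. *THI2.1* (−1.74) and *SBPASE* (−0.93) lie farthest to the left, and the open circles lie to the right of the filled points for all genes shown.

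The 9 named genes of the light reactions lay between −0.51 and 0.0080, with a median of −0.27 (−0.13 after quantile normalization), and 0 of them passed with or without the block. Of these, 4 were lower in *bp er fil-10* without overlap, as were 30.5% of all listed genes and 9.13% of all probe sets tested. *LHCB4.1*, a minor antenna protein of photosystem II, gave 13749.7, 9154.8 and 10167.4 in *bp er fil-10* and 14614.9, 14712.5 and 17362.5 in *bp er*. *PSAE-1*, a stromal subunit of photosystem I, gave 10827.8, 9668.6 and 10747.8 in *bp er fil-10*, against 15542.6, 12112.2 and 14305.6 in *bp er*. Their log2 differences were −0.51 (SE 0.17) and −0.42 (SE 0.13), and their adjusted p with the block was 0.0823 and 0.0654. *AT4G01150* (CURT1A, which bends thylakoid membranes) and *ATPC1* (the gamma subunit of the chloroplast ATP synthase) were the other two without overlap, at −0.36 and −0.32.

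The other 5 named genes of the light reactions had overlapping genotypes. *PSB27*, an assembly factor of photosystem II, gave 6753.8, 6384.8 and 6791.1 in *bp er fil-10* and 6860.1, 6439.2 and 6520.4 in *bp er*. The arrays were interleaved, and the log2 difference was 0.0080 (95% interval −0.25 to 0.27), or 0.20 after quantile normalization. *PSBW*, a small subunit of photosystem II, had a log2 difference of −0.12 (−0.43 to 0.20, and 0.079 after quantile normalization), *PSAN* of photosystem I −0.27 and *PSBY* −0.27. The plastid gene *psbK*, for a small subunit of photosystem II, gave 12611.9, 10177.2 and 11831.2 in *bp er fil-10* and 15249.9, 11294.8 and 15507.9 in *bp er*, which overlap.

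On the wider array, the words used to class genes by description found 9 photosynthesis genes among the probe sets tested. The annotation holds few descriptions, and of the 14 genes above the words found 5. Over the 9 the median log2 difference was −0.12 (−0.023 after quantile normalization), 6 were below 0, and 0 passed with or without the block. At an unadjusted p under 0.05, 3 were lower and 0 higher, where 7.06% and 9.78% of all probe sets tested were. *RCA* and *LHCB4.1* are among these 3, and 5 of the 9 are genes of the list, so that the counts are not separate from those above. The same words found 18 genes of carbon metabolism (5 in the list), of which 0 passed without the block and 1, lower in *bp er fil-10*, with it (5.56%, against 2.13%).

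Primary carbon metabolism outside the Calvin cycle was represented by 8 named genes, of glycolysis, the supply of acetyl-CoA and reducing power, respiration and photorespiration. Of these 0 passed with or without the block, and in all 8 the genotypes overlapped. Their median log2 difference was −0.20, or −0.047 after quantile normalization. *GAPC2*, the cytosolic glyceraldehyde-3-phosphate dehydrogenase, gave 13306.1, 12877.4 and 15106.0 in *bp er fil-10* and 16183.0, 14097.3 and 26235.5 in *bp er*. A single *bp er* array stood high, and the log2 difference of −0.40 had a 95% interval of −0.90 to 0.096. *TPI*, triose-phosphate isomerase, gave 9965.0, 10143.8 and 10172.2 in *bp er fil-10* and 11105.3, 9904.9 and 9904.4 in *bp er*, a log2 difference of −0.028 (−0.29 to 0.23) that was 0.19 after quantile normalization.

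Of the named genes 2 are cytoskeletal, and both passed with the block as lower in *bp er fil-10*. With the block, 9% of all listed genes and 2.13% of all probe sets tested passed as lower. These 2 were grouped after their values had been seen, so that their count is not a result about the cytoskeleton. *TUA6*, an alpha-tubulin, gave 7328.9, 6466.6 and 7249.7 in *bp er fil-10*, against 10113.6, 9065.2 and 11448.0 in *bp er*. *SPR1* (*SPIRAL1*), which encodes a small microtubule-associated protein needed for straight cell expansion, gave 3992.0, 3993.6 and 3977.5 in *bp er fil-10*, against 5684.9, 5351.0 and 7637.7 in *bp er*. Neither overlapped between genotypes, and the 3 *bp er fil-10* signals of *SPR1* were nearly identical. The log2 difference was −0.54 (SE 0.13; limma adjusted p = 0.143, and 0.0388 with the block) for *TUA6* and −0.62 (SE 0.16; 0.146, and 0.0460 with the block) for *SPR1*. After quantile normalization with the block neither passed (0.170 and 0.0856). Of 12 cytoskeletal genes found by description among the probe sets tested, 3 passed with the block, all lower in *bp er fil-10* (25%, against 2.13%). *TUA6* is 1 of these 3, so the count is not separate from it, and *SPR1* was not found by description.

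Of 4 genes named for cold or drought, *COR47* passed with the block. It encodes a dehydrin, a hydrophilic protein that accumulates in cold or dry cells, and gave 5428.3, 3864.1 and 3480.8 in *bp er fil-10*, against 7215.5, 6723.5 and 6237.7 in *bp er*. The genotypes did not overlap, and the log2 difference was −0.68 (SE 0.18; limma adjusted p = 0.152, 0.0308 with the block, and 0.0661 with the block after quantile normalization). *COR15A*, a cold-regulated protein of the chloroplast, and *AT1G54410* (HIRD11, a small dehydrin) had differences of −0.35 and −0.39 with overlapping genotypes, and *DI19* had 0.11.

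*PRXR1*, annotated as a peroxidase, gave 10305.0, 9434.7 and 6380.7 in *bp er fil-10*, against 15614.9, 12817.2 and 11123.3 in *bp er*. The arrays did not overlap, and the log2 difference was −0.61 (SE 0.21; limma adjusted p = 0.211, 0.0287 with the block, and 0.115 with the block after quantile normalization). The difference was −0.41 without *bp er fil-10* replicate 3. The other named redox genes, *GRXC2* (a glutaredoxin) and *ATHM2* (a thioredoxin of the chloroplast), overlapped, with −0.073 and 0.22. The difference of *GRXC2* was 0.098 after quantile normalization, so its direction is not settled. By description 23 redox genes were found among the probe sets tested, 3 of them in the list. Below 0 lay 17 of the 23 (against 43.6% of all), with a median of −0.19 (−0.21 after quantile normalization). With the block 3 of the 23 passed, all lower and *PRXR1* among them, where 2.13% of all probe sets tested did. Of the 3 named proteases, *SBT1.3*, a subtilase, had no overlap and a difference of −0.38, the aspartic protease *APA1* had −0.15 (0.040 after quantile normalization), and the carboxypeptidase *SCPL49* had 0.35.

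The 9 other named genes of the list have mixed roles, and 0 of them passed with or without the block. *PGY1*, which encodes a protein of the large ribosomal subunit, gave 6162.3, 5840.7 and 6697.7 in *bp er fil-10*, against 8497.8, 7040.1 and 8314.8 in *bp er*, without overlap (log2 difference −0.35, or −0.16 after quantile normalization). *SAMDC*, S-adenosylmethionine decarboxylase of polyamine synthesis, gave 14556.9, 13623.4 and 15957.4 in *bp er fil-10* and 16100.8, 16172.7 and 17469.3 in *bp er*, also without overlap. Its difference of −0.17 was 0.13 after quantile normalization, so that its direction depended on the scaling. The calreticulin gene *CRT1b* (−0.034, and 0.18 after quantile normalization), the beta-glucosidase gene *ATA27* (0.087), the plastid *matK* (−0.35), *AT4G02620* (VHA-F, a subunit of the vacuolar proton pump, 0.097), *AT1G53210* (NCL, a sodium and calcium exchanger, 0.14), *AILP1* (0.19) and *CCL* (0.32) overlapped between genotypes.

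Over the 47 named genes the median log2 difference was −0.27, with 33 below 0 and 7 that passed with the block (14.9%, against 3.74% of all probe sets tested). Over the 153 genes with a locus number only it was −0.15, with 120 below 0 and 13 that passed with the block (8.5%). Of these 13, 11 were lower in *bp er fil-10*. Some differed about as much as *SBPASE*. *AT3G28790* gave 2590.9, 5008.9 and 4872.7 in *bp er fil-10*, against 7731.3, 8102.1 and 7726.1 in *bp er*, with a log2 difference of −0.98 (SE 0.24; limma adjusted p = 0.142, and 0.0273 with the block). *AT1G78460* gave 3012.5, 2611.5 and 3976.3 in *bp er fil-10*, against 6967.9, 5891.7 and 5108.5 in *bp er*, with −0.92 (SE 0.19; 0.124, and 0.0299 with the block). In neither gene did the genotypes overlap.

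*AT3G07820* gave 5760.4, 5419.5 and 7660.4 in *bp er fil-10* and 12432.9, 10161.4 and 11913.4 in *bp er*. Its log2 difference was −0.88 (SE 0.16; limma adjusted p = 0.115, and 0.0134 with the block). *AT2G47050* gave 4732.3, 4824.0 and 7604.4 in *bp er fil-10* and 9469.2, 8611.6 and 10318.6 in *bp er*, with −0.76 (SE 0.20; 0.150, and 0.0247 with the block). In both genes the *bp er fil-10* replicate 3 array was the highest of its genotype and still below every *bp er* array. With that array left out, 5 genes passed in limma without the block, these 2 together with *AT1G78460*, *AT3G28830* and *THI2.1* (adjusted p = 0.0443 for each). The share over all probe sets was not counted for this fit, so that the count is not a result about these genes.

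The other 7 of these 11 were, without overlap, *AT3G04840* (−0.64), *AT5G33370* (−0.53), *AT1G48750* (−0.52), *AT1G78040* (−0.50) and *AT2G20870* (−0.46), and, with overlap, *AT1G13930* (−0.77) and *AT1G09310* (−0.74). The last 2 depended on single arrays. *AT1G13930* was −0.45 without *bp er fil-10* replicate 3 and −1.18 without *bp er* replicate 3. *AT1G09310* was −0.38 without *bp er fil-10* replicate 2, −0.49 without *bp er* replicate 3 and −1.04 without *bp er fil-10* replicate 3. The adjusted p of the 7 with the block lay between 0.0147 (*AT1G13930*) and 0.0466 (*AT1G48750*). After quantile normalization with the block, *AT1G13930* (0.0322) was the only one of these that passed.

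Several of the lower genes lie near each other on chromosome 3. *AT3G28750*, *AT3G28790* and *AT3G28830* have 4 and 2 genes between them in the TAIR10.1 gene order. *AT3G28750* gave 4311.6, 4786.9 and 6112.4 in *bp er fil-10*, against 9574.8, 7652.9 and 6896.0 in *bp er*, with no overlap. *AT3G28830* gave 2399.6, 3102.3 and 5186.6 in *bp er fil-10* and 6395.3, 7003.5 and 5166.3 in *bp er*, where the replicate 3 arrays were nearly equal and the others far apart. Their log2 differences were −0.67 (SE 0.18) and −0.86 (SE 0.27), and neither passed with the block (adjusted p = 0.0678 and 0.0784). In all, 16 pairs of listed genes had no more than 9 genes between them. In 11 pairs both members were below 0, in 3 both were above, and in 2 they differed in sign. The pairs that *AT3G28750*, *AT3G28790* and *AT3G28830* form with each other are counted separately among the 11. Since 76.5% of all listed genes were below 0, many pairs of any listed genes would have both members below 0. Whether neighbours shared a sign more often than other pairs was not tested. Where neighbours are similar in sequence, their probe sets may share RNA, which was not tested.

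Few abundant transcripts were higher in *bp er fil-10* with the scaling as deposited. *AT1G56220* gave 13230.3, 11127.8 and 6050.7 in *bp er fil-10* and 6095.2, 6668.8 and 3902.2 in *bp er*. Within each replicate number the *bp er fil-10* array was higher, but the genotypes overlapped through replicate 3, and the log2 difference of 0.83 (SE 0.31) passed only with the block (limma adjusted p = 0.0170, against 0.234 without). *AT5G24490* gave 10610.4, 11896.9 and 3140.3 in *bp er fil-10* and 5554.8, 6897.0 and 1915.7 in *bp er*. It showed the same order within each number, with a log2 difference of 0.81 (SE 0.59; 0.0147 with the block, 0.511 without). The difference was 0.25 without *bp er* replicate 3, 0.46 without *bp er fil-10* replicate 2 and 1.42 without *bp er fil-10* replicate 3. Both also passed with the block after quantile normalization (0.00474 and 0.00491).

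The 4 genes that were higher on all *bp er fil-10* arrays than on any *bp er* array were *AT4G39200*, *AT5G07230*, *AT3G03100* and *AT5G21090*. *AT4G39200* gave 7872.7, 5460.8 and 8201.4 in *bp er fil-10*, against 5224.1, 5174.3 and 5136.8 in *bp er* (log2 difference 0.45, SE 0.17). *AT5G07230*, which stands on the list of floral loci used to check the tissue, gave 6252.6, 6566.9 and 8187.1 in *bp er fil-10*, against 5567.2, 4735.1 and 4781.8 in *bp er* (0.47, SE 0.15). The differences of *AT3G03100* and *AT5G21090* were 0.30 and 0.22. None of the 4 passed without quantile normalization, with or without the block. After it, *AT4G39200* (adjusted p = 0.0431) and *AT5G07230* (0.0366) passed with the block, as did *AT3G15450* (0.0182) and *AT5G62080* (0.0469).

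Some abundant transcripts varied more between replicates than between genotypes. For each genotype the replicate 3 array was set against the mean of replicates 1 and 2. It was lower by more than 1 on the log2 scale in 5 genes in *bp er fil-10* and in 5 in *bp er*. Of these, 4 were the same genes, *PORB*, *CCL*, *AT3G15450* and *AT5G24490*. Such shifts were not counted over all probe sets tested, so whether they are more or less frequent among abundant transcripts is not known. *PORB*, a protochlorophyllide oxidoreductase of chlorophyll synthesis whose reaction is driven by light, gave 10548.9, 8430.0 and 1631.0 in *bp er fil-10* and 8817.0, 8653.7 and 1155.3 in *bp er*. *CCL*, listed as CCR-like, gave 12888.1, 12922.5 and 2888.7 in *bp er fil-10* and 9215.0, 10438.9 and 2594.4 in *bp er*. In both the genotypes overlapped and replicate 3 of either genotype was far below the other arrays.

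**Figure D4:**
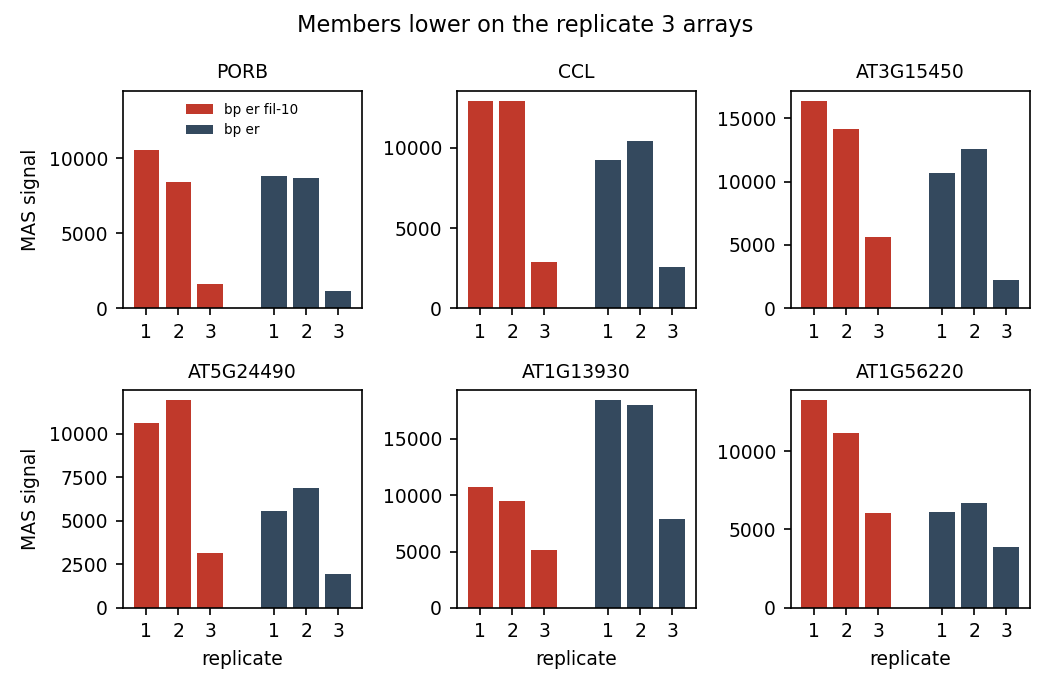
MAS signal (y axis, linear) of 6 genes whose replicate 3 arrays were lower, with replicates 1 to 3 (x axis) of *bp er fil-10* in red on the left and of *bp er* in dark blue on the right. In *PORB* the replicate 3 bars stand at 1631.0 in *bp er fil-10* and 1155.3 in *bp er*, against 8430.0 or more on all other arrays.

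The shift of *PORB* was −2.53 in *bp er fil-10* and −2.92 in *bp er* on the log2 scale, and that of *AT3G15450* −1.43 and −2.37. *AT3G15450* gave 16384.7, 14193.0 and 5643.0 in *bp er fil-10* and 10681.8, 12600.5 and 2236.7 in *bp er*. *AT1G13930* passed this limit in *bp er* only, with −0.96 in *bp er fil-10* and −1.21 in *bp er*. These genes had standard errors of the genotype difference far above the median of 0.15 (0.90 for *PORB*, 0.67 for *CCL* and 0.65 for *AT3G15450*). What set replicate 3 apart was not tested.

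Markers of tissues bear on which cells the abundant transcripts come from. Of 15 floral loci listed for this check 2 had a named probe set, *AT5G07230*, which is in the list, and *AMS*, a regulator of the tapetum with signals of 99.1 to 136 in *bp er fil-10* and 117 to 132 in *bp er*. The summed signal of the 2 was 6389 to 8286 in *bp er fil-10* and 4864 to 5699 in *bp er*. Nearly all of this sum is the signal of *AT5G07230*, so it adds little to that gene. *AMS* itself overlapped between genotypes, with a log2 difference of −0.041. Of 4 root loci 1 was named, *EXPA7*, with 4.4 to 27.9 in *bp er fil-10* and 5.0 to 22.3 in *bp er*, below 100 on every array, and of 4 seed loci 0 were named. Of 2 late pollen loci 1 was named, *AT5G45880*, which is in the list and gave 5130.6, 5160.1 and 7420.8 in *bp er fil-10* and 9917.1, 9215.5 and 6760.2 in *bp er* (log2 difference −0.55, SE 0.20; limma adjusted p = 0.228, and 0.145 with the block). The part that differing stages or cell numbers had in the results above was not tested.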

How the data were processed

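Inflorescence RNA was hybridized to 6 ATH1 arrays, 3 of *bp er fil-10* and 3 of *bp er*. The deposited values are intensities on a linear scale, MAS signals that the authors made with GCOS (version not given in the sources used here) and scaled per array to a target of 500. cDNA was primed with oligo dT and amplified before labelling. The files hold no genome build and no detection calls.

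From these, 1 signal of 0 was raised to 0.1, log2 was taken, and probe sets that reached 100 on 3 or more of the arrays were kept (14456). The test was that of limma 3.58.1 in R 4.3.3, 2-sided, with lmFit, then eBayes with its trend on intensity, and with p-values adjusted by Benjamini-Hochberg over all probe sets kept. The p-values measure the spread between samples labelled as biological replicates. The number of arrays limits the precision. The fit without the block was tried on simulated independent arrays with no replicate effect, which does not check the calls made with the block. Tables and plots were made with Python 3.11.15, pandas 2.3.3, numpy 2.4.6 and matplotlib 3.10.9.

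Replicates are numbered 1 to 3 in each genotype. After each genotype's mean was subtracted, arrays sharing a number had correlations of 0.103, 0.221 and 0.380, each over the 0.1 above which numbers were taken to pair arrays, and the fit with the replicate block is given where it changes a call. The basis is narrow, since *bp er fil-10* replicate 1 correlated more with *bp er* replicate 2 (0.225) than with replicate 1.

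Genes were named from the probe set annotation (503 probe sets with several genes and 8730 with none were not named) and from the TAIR10.1 gene table, which held all 200. The members and lists were chosen with earlier results of these data known. Named genes were those called with or without the block, the 10 with the smallest p in each direction, the 3 brightest of each class of descriptions, and the genes at the ends of the list; the 38 genes grouped by role and the neighbours were chosen after their values were seen. The words for classes put *SAMDC* with the small secreted peptides, a wrong match that was left in place. Alternatives were the replicate block, quantile normalization, median centring, other filters, a floor of 100, no intensity trend and leaving out each array.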

Additional observations from a re-analysis of the deposited data

How the results depend on the processing

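Limma called 0 of the 200 genes as reported, 20 with the replicate block, 1 with median centring, 1 with signals under 100 raised to 100, and 0 to 5 with an array left out (5 without *bp er fil-10* replicate 3, 1 without *bp er* replicate 3). Apart from the first 2 of these fits, the share over all probe sets was not counted. At an unadjusted p under 0.05 the 5 higher genes became 10 with the block, 19 after quantile normalization, 2 with median centring, 2 without the intensity trend and 2 to 8 with an array left out. The 49 lower genes became 71 with the block, 67 with median centring, 15 after quantile normalization, 31 without the trend and 25 to 56 with an array left out. Genes without overlap were 31 higher and 22 lower after quantile normalization, and 5 to 17 higher and 62 to 96 lower with an array left out. Leaving out an array can only keep or raise such a count. The share over all probe sets was not counted for these settings, so the rise is not a result about the 200. The median difference of the 200 (−0.17) was −0.25 with median centring and −0.22 to −0.13 with an array left out. It was 0.022 after quantile normalization, which brings it near 0 by construction. Over the 5 photosynthesis genes found by description the median was −0.27 as reported and −0.023 after quantile normalization. Over the 3 redox genes it was −0.073 as reported, 0.098 after quantile normalization, −0.15 with median centring, and −0.24 to 0.12 with an array left out. By the ratio of mean signals 1 gene, not 3, was lower by 1.9-fold. The 20 genes with the block became 13 after quantile normalization. Without replicate 1, 2 and 3 they became 2, 9 and 40, with no share over all probe sets counted. These alternatives were chosen after seeing the data. The cause was not tested.

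Of the 40 genes named by rule, *SAMDC* was 0.13 after quantile normalization, *TPI* 0.19, and −0.055 to 0.027 with an array left out, the highest without *bp er* replicate 1, and *GRXC2* 0.098, and 0.11 and 0.12 without *bp er fil-10* replicate 2 or *bp er* replicate 3. *AT3G54210* was −0.073 with median centring, and −0.08 and −0.18 without *bp er fil-10* replicate 1 or *bp er* replicate 3. The other 36 kept their direction under these settings. The sequence features planned were not run, as no sequences were used here.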
